A study of Caenorhabditis elegans with 2 samples.

Results

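The 3421 weaker LIN-26 peaks are the nuclear peaks that fell between the threshold of the deposited list and an irreproducible discovery rate (IDR) of 0.05, out of 85164 ranked peaks in all. The IDR is the expected share of irreproducible peaks among those ranked at least as high, judged from the agreement of ranks between inputs. The members were taken from the ranked list made from both replicates, which held 85149 nuclear peaks. A peak was kept where its IDR lay between 0.01 and 0.05, which held for 3440 nuclear peaks, and 19 of these were dropped because they overlapped a peak of the less strict thresholded list. The comparison set was the 3187 nuclear peaks of that thresholded list. The members were chosen by their IDR, and the signal comes from the same peak calls, so both values are given below as description and no test was made on them.

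Young adult Caenorhabditis elegans were taken whole at 64 hours, and their chromatin formed 1 group of 2 biological replicates. Both replicates were of strain RW12178, in which CRISPR inserted GFP at the lin-26 locus (st12178) with a floxed unc-119(+) marker, on an unc-119(tm4063) III background. The worms had been synchronised by bleaching and starved as L1 larvae, the fusion protein was precipitated through its GFP tag, and chromatin was sonicated to 200 to 800 bp. The labels give lin-26 as the antibody in one field and GFP in another. Peaks were called against a control alignment, and no untagged or otherwise different group was analysed here. Whole animals were used, so strong binding in few cells and weak binding in many cannot be told apart, and the lists carry no read counts, so depth is unknown.

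LIN-26 is a zinc-finger protein of C. elegans known for specifying and maintaining epidermal fate in the embryo, in the hypodermis and in the support cells of sense organs. Factors that bind DNA in a sequence-specific way are usually sought at promoters and other accessible regulatory DNA. The tRNA genes, which RNA polymerase III transcribes, have promoter elements inside the gene, called the A and B boxes.

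The sequences below are 100 bases around the summits of 7 weaker peaks, shown because the results turn on coding sequence and on 4 short sequence motifs. For each class, they belong to the weaker peaks of lowest IDR that qualify. They are the plus strand of WBcel235, read 5′ to 3′. Capitals mark a match, on either strand, to the motif that the window is shown for, and other motifs are left unmarked. The coding windows lie at chrX:12262499-12262598 in E01G6.1 and chrX:1570766-1570865 in H02F09.3. They were not marked for any motif, so they have no capitals whether or not they hold a match. The GA repeat windows lie between genes, at chrII:8287241-8287340 (1580 bp from cct-4, a chaperonin subunit) and chrV:14613762-14613861 (106 bp from ccnk-1, a cyclin K gene). The KLF/Sp window lies at chrX:11957143-11957242, in the promoter window of T08D10.5. The window with GACGCAG lies at chrX:16369921-16370020, in an intron within ace-1, an acetylcholinesterase gene. The window with the B box core lies at chrX:13261172-13261271 and overlaps a tRNA gene, WBGene00014428, that runs from 13261203 to 13261274 on the plus strand.
E01G6.1 coding: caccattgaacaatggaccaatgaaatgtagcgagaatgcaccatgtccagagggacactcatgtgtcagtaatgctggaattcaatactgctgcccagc
H02F09.3 coding: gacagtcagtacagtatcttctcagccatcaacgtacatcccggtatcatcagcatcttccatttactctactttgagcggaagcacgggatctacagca
GA repeat near cct-4: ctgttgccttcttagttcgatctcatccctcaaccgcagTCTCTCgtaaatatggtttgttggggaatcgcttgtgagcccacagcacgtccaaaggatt
GA repeat near ccnk-1: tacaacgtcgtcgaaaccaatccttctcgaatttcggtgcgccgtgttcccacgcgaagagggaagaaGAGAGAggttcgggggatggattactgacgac
KLF/Sp at T08D10.5: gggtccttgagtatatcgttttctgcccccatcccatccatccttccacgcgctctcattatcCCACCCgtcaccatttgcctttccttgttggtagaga
GACGCAG in ace-1: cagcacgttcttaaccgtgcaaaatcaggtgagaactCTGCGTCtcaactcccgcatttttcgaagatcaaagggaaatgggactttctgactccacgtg
B box core at the tRNA gene: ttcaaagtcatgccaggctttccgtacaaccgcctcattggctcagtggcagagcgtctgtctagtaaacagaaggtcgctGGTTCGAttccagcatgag

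Some of the 7 peaks behind these windows are given here with their values in the replicates' own lists, whose signals are not scaled to each other. The E01G6.1 peak had a signal of 48.9 in replicate 1, at an IDR of 0.105 there, and of 37.0 in replicate 2, at an IDR of 0.323. The H02F09.3 peak had 42.2 and 46.1, at IDRs of 0.435 and 0.0557. The T08D10.5 peak had 32.6 in replicate 1, at an IDR of 0.743, and 61.3 in replicate 2, at 0.00659. Of these 3 peaks, the T08D10.5 peak alone passed 0.01 in a replicate's own list. The tRNA peak had 25.7 and 62.8, at IDRs of 0.456 and 0.0139.

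The weaker peaks had a narrow range of signal that lay almost wholly under that of the thresholded peaks. The signal is the peak caller's value for enrichment over the control. It had a median of 73.4 with quartiles of 65.5 and 81.5, and ran from 2.01 to 167. The thresholded peaks had a median of 112 with quartiles of 92.1 and 164, and reached 3137. Of the weaker peaks, 3213 (93.9%) lay below the first quartile of the thresholded ones, and 13 lay above their median. The median IDR was 0.0273. The members were spread over the band, with 1072 peaks up to 0.02, 861 up to 0.03, 773 up to 0.04 and 715 up to 0.05. A width of 336 bp was shared by 3418 weaker peaks (99.9%) and by 2706 thresholded ones (84.9%). After merging overlaps, the weaker peaks formed 3154 regions and covered 1.11% of the genome, and the thresholded peaks formed 2968 regions and covered 0.964%. Signals below 10 were given to 96 weaker peaks, of which 93 overlapped another weaker peak.

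The peaks at the edges of the band were as follows. Just inside 0.01, the peak at X:12262381-12262716 had an IDR of 0.0100056 and a signal of 83.4, and just outside it the thresholded peak at V:2709373-2709708 had 0.00999784 and 85.4. Just inside 0.05, the peak at II:8134546-8134881 had an IDR of 0.049997 and a signal of 67.3, and just outside it the peak at III:10165399-10165734 had 0.0500114 and 57.1. There were also 78 ranked nuclear peaks past 0.01 that the thresholded list does not hold, and leaving out the 10 weaker peaks near one of them changed no call.

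Coding sequence was the most frequent place of a weaker summit. Of 3421 weaker summits, 1287 lay in coding sequence, which is 37.6% (95% Wilson interval 36.0 to 39.3), against 574 of 3187 thresholded summits, or 18.0%. Coding sequence takes up 24.6% of the nuclear genome, so the weaker summits lay above its share and the thresholded ones below it. A share above that of the genome was not particular to the weaker band. Lower-ranked peaks that overlap no thresholded peak had 39.1% at IDRs of 0.05 to 0.1 and 39.9% at 0.1 to 0.2. They had 37.9% at 0.2 to 0.4 and 33.5% at 0.4 to 1. Between weaker and thresholded summits the difference was 19.6 percentage points (17.5 to 21.7). Its adjusted p was 5.42e-71 in a two-sided Fisher exact test over 6 gene parts. In the replicates' own lists, the same band against the same threshold gave 29.4% against 11.2% in replicate 1 and 30.7% against 12.5% in replicate 2. The share was higher in the weaker band under every alternative that was run, by 11.4 to 20.7 points. The smallest difference was that against the 1593 thresholded peaks with the lower signal, of which 26.2% lay in coding sequence. These tests compare peaks of the same lists, where neighbouring summits are not independent, and the intervals cover counting error only.

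Introns held 824 weaker summits, 24.1% against 18.8% of the thresholded ones, at an adjusted p of 3.26e-07, and take up 33.9% of the genome. Against the lower-signal thresholded peaks this difference was 1.93 points and was no longer called. The other 4 parts held smaller shares of the weaker summits than of the thresholded ones. Sequence outside genes held 26.4% against 33.2%, and exons that are neither coding nor UTR held 5.32% against 20.2%. Such exons include those of tRNA, snoRNA and snRNA genes. This difference and the one near those genes, given below, therefore count some of the same summits. The 3′ UTR held 4.85% against 7.22%, and the 5′ UTR held 1.72% against 2.54%. The calls for both UTRs did not hold in the lists of single replicates, where the differences were between 0.00409 and 0.587 points in the other direction, nor did the call outside genes in replicate 1, at 0.144 points.

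**Figure D1:**
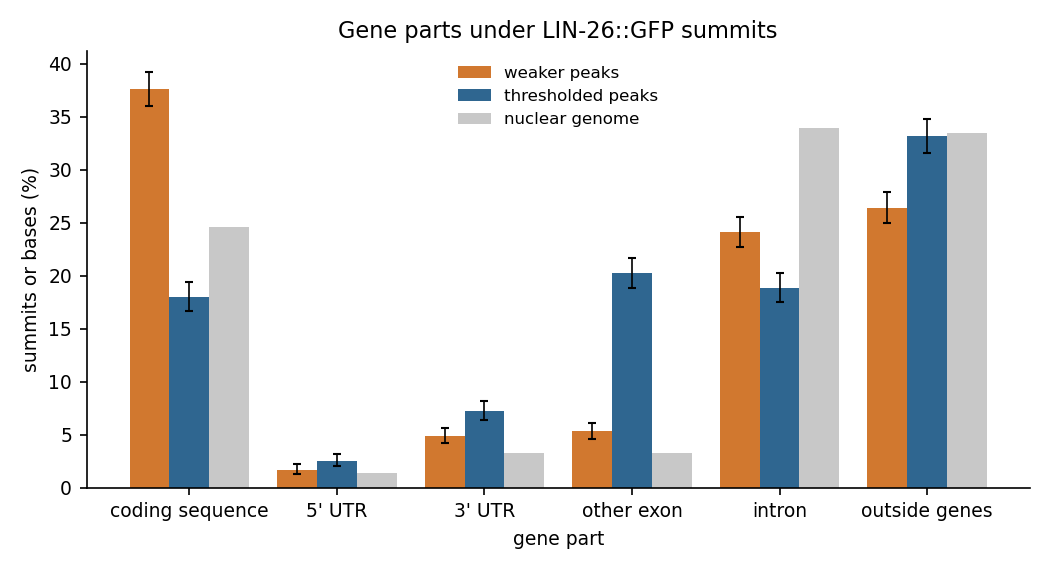
Share of weaker peak summits, thresholded peak summits and nuclear genome bases in each of 6 gene parts, in percent, with 95% Wilson intervals on the summit shares. Weaker summits stand at 37.6% in coding sequence against 18.0% of thresholded summits, and thresholded summits stand at 20.2% in other exons against 5.32%.

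The coding summits were spread over many genes. A weaker summit lay in the coding sequence of 1119 of 19973 protein-coding genes, or 5.6%, and a thresholded one in that of 516, or 2.58%. The lists shared 93 of these genes, which is 8.31% of the first and 18.0% of the second. Most genes, 976, had 1 weaker coding summit, 123 had 2, 15 had 3 and 5 had 4, where summits of overlapping peaks count separately. Along the gene, from its 5′ to its 3′ end, the weaker coding summits had a median place of 52.9% of the gene's length, with quartiles of 26.5% and 77.3%. The median of the thresholded ones lay at 47.1%. Genes with a weaker coding summit had a median coding length of 1500 bp, against 990 bp over all genes, and the part of length in these counts was not tested.

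The 5 genes with 4 weaker coding summits were unc-52, dig-1, let-2, pezo-1 and fah-1, none of which had a thresholded coding summit. Not all of these summits are separate places. At unc-52, the peaks at II:14656386-14656721 and II:14656598-14656933 overlapped, with combined signals of 80.6 and 12.4. At dig-1, those at III:6780089-6780424 and III:6780302-6780637 overlapped, with 65.4 and 19.7. The gene unc-52 encodes perlecan, a proteoglycan of the basement membrane under body wall muscle. Its peak of lowest IDR, at II:14664582-14664917, had 0.0103, with signals of 32.4 in replicate 1 and 46.6 in replicate 2. A type IV collagen chain of basement membranes is the product of let-2, whose 4 peaks had signals from 25.8 to 34.1 in replicate 1 and from 36.0 to 49.7 in replicate 2. The PIEZO mechanosensitive channel is the product of pezo-1, and its peak of lowest IDR had 26.0 and 50.3. The enzyme gene fah-1, for fumarylacetoacetate hydrolase, is short, at 1254 bp of coding sequence, and its 4 summits belong to overlapping peaks. A large adhesion protein is the product of dig-1, which has 39252 bp of coding sequence.

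Muscle genes had weaker summits in promoter windows and coding sequence, and no thresholded ones there. Of 39 muscle genes, 11 had a weaker summit in the coding sequence, 28.2% (16.5 to 43.8) against 5.6% of all genes, and 7 had one in the promoter window, 17.9% against 5.55% of all genes. A thresholded summit lay in neither place in any of the 39, with an interval up to 8.97% in each place. That interval holds the thresholded shares of all genes, 6.65% in promoter windows and 2.58% in coding sequence. Thresholded summits elsewhere in or near these genes were not counted. Muscle genes are longer than most, with a median coding length of 1398 bp, and per megabase of coding sequence they had 119.8 weaker summits against 52.1 over all genes. Other lists stood on both sides of that density, from 7.62 in chemoreceptors to 408.1 in proteasome subunits. Of the 16 weaker coding summits of the muscle genes, 4 lay in unc-52, some of them in overlapping peaks. The lists were chosen with earlier results of these data known, and no list was tested.

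The 11 muscle genes with coding summits cover the thick filament, the thin filament and the attachment sites of the sarcomere. The myosin heavy chain gene unc-54 had a peak at I:14858476-14858811 with signals of 18.6 and 37.7 in replicates 1 and 2, at IDRs of 0.250 and 0.135. The myosin heavy chain gene myo-1 had 31.5 and 47.9, at IDRs of 0.290 and 0.179. The giant sarcomere kinase gene unc-22 (twitchin) had 35.3 and 29.3, at IDRs of 0.0827 and 0.269. None of these 3 peaks passed 0.05 in either replicate. The vinculin gene deb-1 had 33.5 and 36.0, and unc-45, a myosin chaperone, had 30.9 and 40.3. The integrin gene pat-2 had 50.01 in replicate 1 at an IDR of 0.0522 and no matching peak in replicate 2.

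Actin genes stood among the muscle genes by both places. The actin gene act-4 had a peak at X:4960482-4960817, with its summit 29 bp downstream of a 5′ end, and signals of 36.2 and 52.3. A second act-4 peak, in the coding sequence at X:4963318-4963653, had 54.8 and 29.2, at IDRs of 0.00826 and 0.630, so the replicates were in opposite order there. The actin genes act-2 and act-3 had promoter peaks as well, with 43.7 and 41.4 at act-2 and 27.8 and 45.9 at act-3. Actin genes are close copies of each other, and the sources used here do not say how reads with several matches were placed, so the assignment to 1 copy is uncertain.

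Proteasome genes had the highest share of weaker coding summits among the 21 lists. Of 33 proteasome subunit genes, 13 had one, 39.4% (24.7 to 56.3), and 10 (30.3%) had a thresholded one, against 5.6% and 2.58% of all genes. The peak in rpn-13, the gene of a ubiquitin receptor of the regulatory particle, lay at III:6341642-6341977 with signals of 28.2 and 55.9, at IDRs of 0.201 and 0.00961. The peak in rpt-5, the gene of an ATPase of that particle, had 25.3 and 66.9, at IDRs of 0.761 and 0.00671. Both passed 0.01 in replicate 2 alone.

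Germline genes, cuticle collagens and aminoacyl-tRNA synthetases also had coding shares above that of all genes. Of 55 germline genes, 15 (27.3%) had a weaker coding summit, among them htp-1, which encodes a meiotic axis protein, and prg-1, which encodes a Piwi protein. A thresholded coding summit lay in 10 of the germline genes (18.2%), against 2.58% of all genes. Of 175 cuticle collagen genes, which epidermal cells express, 32 (18.3%) had a weaker coding summit and 24 (13.7%) a thresholded one. The collagen gene col-2 had signals of 38.0 and 29.6, and the collagen gene lon-3 had 42.4 and 43.1. Collagens are near-identical in part, so their peaks share the uncertainty named for actin. Of 32 synthetase genes, 6 (18.8%) had a weaker coding summit and 0 a thresholded one, with an interval up to 10.7% that holds the 2.58% of all genes. At the other end, 8 of 1316 chemoreceptor genes (0.608%) had a weaker coding summit. The Wilson interval of the weaker coding share lay above the share of all genes in 9 of 21 lists and below it in 1.

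Epidermal transcription factors formed a small list, with no thresholded summit in promoter windows or coding sequence. The interval of that absence ran up to 16.8% in each place, which holds the 6.65% and 2.58% of all genes. Of 19 genes, 2 had a weaker promoter summit and 2 others a weaker coding summit, each 10.5%, against 5.55% and 5.6% of all genes. The GATA factor gene elt-3 had a promoter peak at X:13938711-13939046 with signals of 33.5 and 35.0, at IDRs of 0.0551 and 0.193. The Grainyhead gene grh-1 had 31.4 and 38.9, at IDRs of 0.682 and 0.203. The even-skipped homologue vab-7 had a coding peak with 19.0 and 57.5, at IDRs of 0.658 and 0.0167. The GATA factor gene egl-18 had a coding peak with a combined signal of 16.6 and no matching peak in either replicate. With 19 genes, a share of 10.5% has an interval from 2.94 to 31.4%, which holds the share of all genes.

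Cytosolic ribosomal protein, histone, chaperone and developmental timing lists had fewer genes with a weaker than with a thresholded promoter summit. All genes together went the same way, at 5.55% against 6.65%, as did proteasome subunits, at 8 genes against 13, while muscle genes did not. The weaker promoter shares of these lists lay above the 5.55% of all genes. The intervals of chaperones (3.35 to 24.9%) and developmental timing (2.53 to 27.8%) hold that share. In coding sequence, all genes had 5.6% against 2.58%. Of 84 cytosolic ribosomal protein genes, 12 (14.3%) had a weaker promoter summit and 29 (34.5%) a thresholded one. A coding summit lay in 10 (11.9%) against 26 (31.0%) of them. The ribosomal protein gene rps-3 had a promoter peak with 23.8 and 44.9, and rpl-22 had 19.9 and 65.5. Of 72 histone genes, 10 (13.9%) had a weaker and 23 (31.9%) a thresholded promoter summit. One histone peak, at V:16042530-16042865, lay in the promoter windows of both his-1 and his-2, and its signals were 36.6 and 53.3. Of 31 chaperone genes, 3 (9.68%) against 10 (32.3%) had a promoter summit. Of 22 genes of developmental timing and molting, 2 (9.09%) against 7 (31.8%) did, while 4 (18.2%) against 2 (9.09%) had a coding summit. The 2 with a weaker promoter summit were lin-42, a Period homologue, with 35.8 and 42.4, and kin-20, a casein kinase gene, with 25.7 and 48.6. Both also had a thresholded promoter summit. Of 31 translation factor genes, 6 (19.4%) against 7 (22.6%) had a promoter summit and 5 (16.1%) against 3 (9.68%) a coding summit. These lists too were described and not tested.

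**Figure D2:**
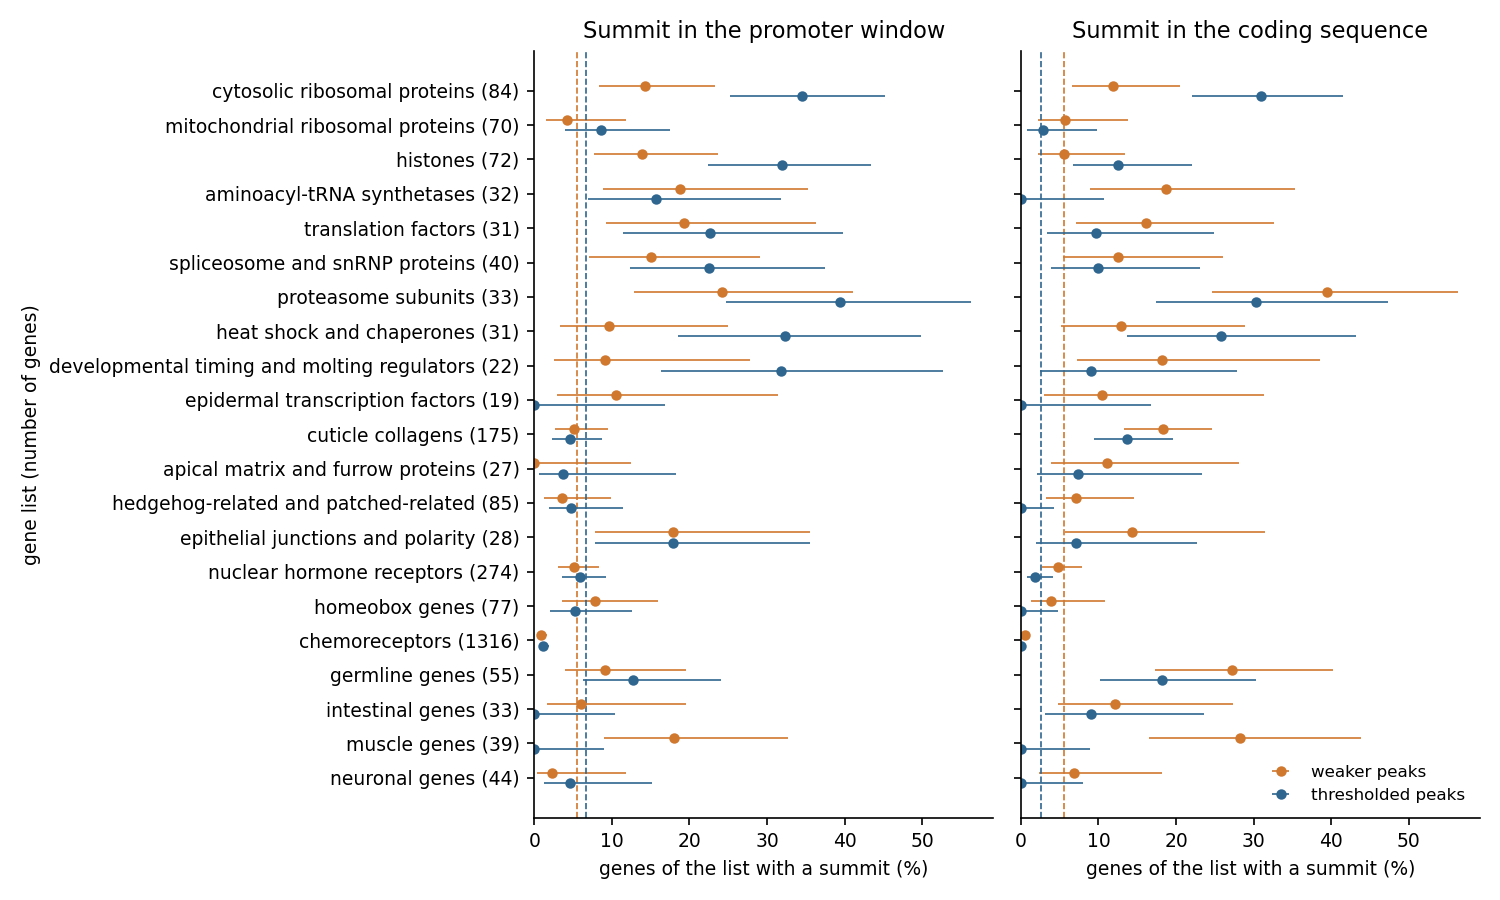
Share of genes in each of 21 lists with a weaker or a thresholded summit in the promoter window (left) or the coding sequence (right), in percent, with 95% Wilson intervals; dashed lines are the shares over all 19973 protein-coding genes. Muscle genes stand at 17.9% and 28.2% for weaker summits and at 0 for thresholded ones, with intervals up to 8.97%.

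Promoter windows held a smaller share of the weaker summits than of the thresholded ones. The window around each of the 29314 5′ ends annotated for protein-coding genes began 1000 bp before it and ended 200 bp after it. These windows held 1089 weaker summits, 31.8% (30.3 to 33.4), against 1267 thresholded ones, 39.8%, and take up 26.1% of the genome. The difference was −7.92 points (−10.2 to −5.61), with p = 1.93e-11 in a two-sided Fisher exact test. It did not hold in the lists of single replicates. Replicate 1 gave 40.2% against 37.5%, a difference of 2.67 points with p = 0.237, and replicate 2 gave 38.4% against 40.3%, a difference of −1.83 points with p = 0.275, in the same Fisher exact test. Those bands held other peaks: 56.1% of the 781 in replicate 1 and 37.9% of the 1584 in replicate 2 overlapped a thresholded peak of both replicates together.

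The promoter windows with a weaker summit belonged to 1109 genes, or 5.55%, against 1329 genes, or 6.65%, for the thresholded summits. The sets shared 125 genes, which is 11.3% of the first and 9.41% of the second, so 984 genes had a weaker promoter summit only. A weaker coding summit was also present in 271 of the 1109. Among the 20 weaker peaks of lowest IDR, 5 lay in a promoter window. At evl-20, the gene of an ARL2-like small GTPase, the peak at II:8444068-8444403 had its summit 71 bp upstream of a 5′ end and signals of 28.5 and 43.7. At gck-1, a germinal centre kinase gene, the signals were 41.3 and 44.2, and at enol-1, the enolase gene, they were 30.3 and 44.2. At F11G11.5 they were 31.8 and 70.7, and the replicate 2 peak passed 0.01 at an IDR of 0.00450. At C56G2.22 they were 29.4 and 34.4.

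Genes for tRNAs, snoRNAs and snRNAs, which serve translation, ribosomal RNA modification and splicing, lay near far fewer of the weaker peaks. Within 500 bp of such a gene lay 58 weaker summits, 1.70% (1.31 to 2.19), against 643 thresholded ones, 20.2%, and the difference of −18.5 points had p = 5.88e-149 in a two-sided Fisher exact test. These margins take up 1.08% of the genome and 0.721% of the genome outside thresholded peaks. Replicate 1 alone gave 8.83% against 41.2%, and replicate 2 alone gave 3.28% against 28.7%. Against the lower-signal thresholded peaks the difference was smaller, with 1.70% against 5.27%, and was still called.

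The classes differed among themselves. Near tRNA genes lay 12 weaker summits, 0.351% (0.201 to 0.612), where the genome share is 0.571% and 0.317% outside thresholded peaks. Of 612 tRNA genes, 502 had a thresholded summit and 10 a weaker one, and in 9 of these 10 the weaker one was the only one. Near snoRNA genes lay 42 weaker summits, 1.23% (0.910 to 1.66), against a genome share of 0.375%. Of 346 snoRNA genes, 123 (35.5%) had a thresholded summit and 39 a weaker one, and 35 of these 39 had no thresholded one. Members overlapping a thresholded peak had been dropped, which limits in advance how many genes of either class can have both. Near snRNA genes lay 5 weaker summits, 0.146% where the genome share is 0.135%, and 61 thresholded ones, 1.91%. Near miRNA genes lay 8 weaker summits, 0.234% where the genome share is 0.251%, and 29 thresholded ones, 0.910%. Genes annotated as ncRNA had 312 weaker summits nearby, 9.12% against 22.0%, where the genome share is 6.72%. All 5 of these classes were called lower among weaker than among thresholded summits. The two-sided Fisher exact tests covered 10 classes, with adjusted p of at most 0.000425. The miRNA call did not hold in the lists of single replicates, at −0.0434 and −0.0672 points. The remaining 5 classes, lincRNA, piRNA, antisense RNA, pseudogenes and rRNA, did not pass the test.

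**Figure D3:**
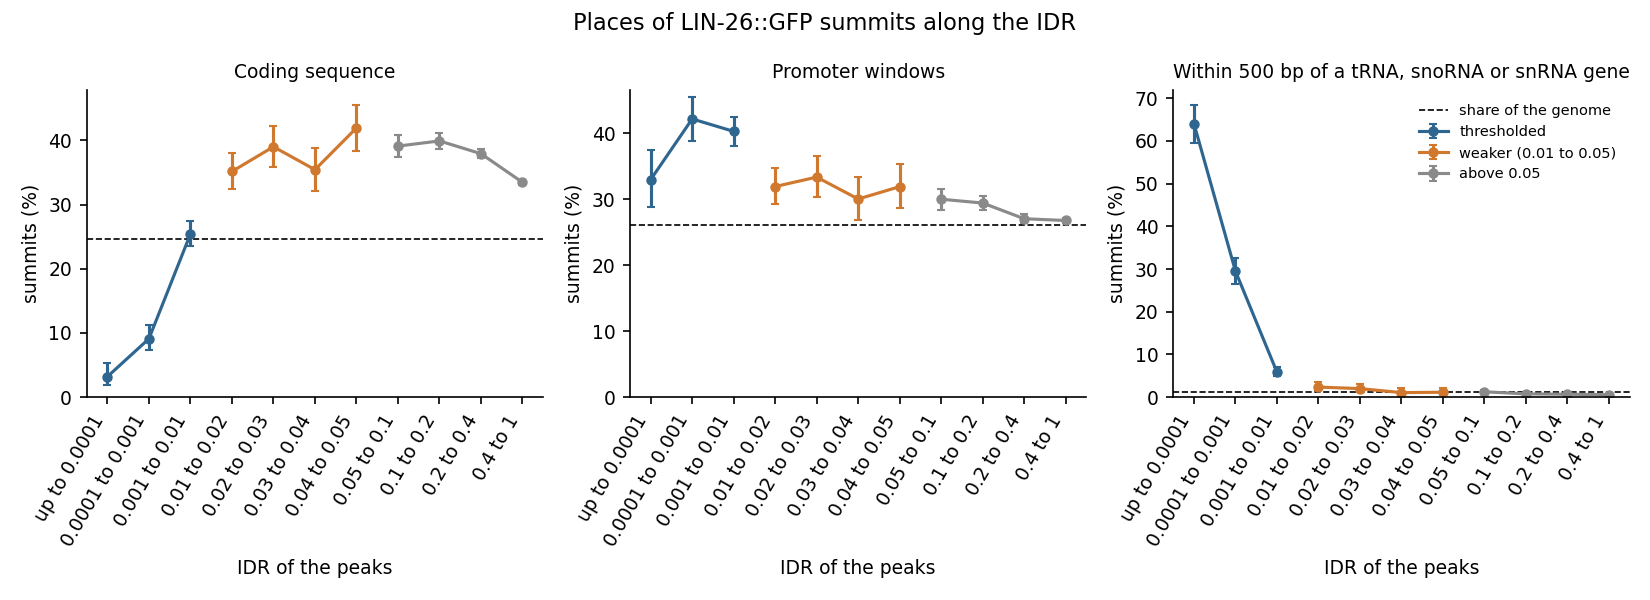
Share of summits in coding sequence, in promoter windows and within 500 bp of a tRNA, snoRNA or snRNA gene, in percent with 95% Wilson intervals, for thresholded, weaker and lower-ranked peaks in bands of rising IDR; the dashed line is the share of the genome. The short RNA share falls from 64.1% in the first band to 1.12% in the last weaker one, and the coding share rises from 3.18% to 42.0% over the same bands.

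Along the IDR, the coding share was higher and the short RNA share lower in each band up to the weaker ones. Among thresholded peaks up to 0.0001, 3.18% of summits lay in coding sequence, and the share was 9.09% up to 0.001 and 25.4% up to 0.01. The 4 bands of weaker peaks gave 35.2, 39.0, 35.4 and 42.0%, and the intervals of neighbouring bands overlapped. Summits near short RNA genes made up 64.1, 29.5 and 5.84% of the thresholded bands and 2.33, 1.97, 1.03 and 1.12% of the weaker ones. Promoter shares were 33.0, 42.1 and 40.3% and then 31.9, 33.3, 30.0 and 31.9%, so all 4 weaker bands lay below the last thresholded one.

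The weaker peaks were close to the next band in most places. The 3172 peaks of IDR above 0.05 and up to 0.10, a comparison chosen after seeing the data, had 39.1% of summits in coding sequence, 30.0% in promoter windows and 1.23% near short RNA genes. The differences from the weaker peaks were −1.50 points (−3.85 to 0.845), 1.85 points (−0.382 to 4.08) and 0.466 points (−0.122 to 1.06), and none passed the Fisher exact test. Sequence outside genes held a larger share of the weaker summits, 26.4% against 23.5%, at an adjusted p of 0.0410. Chromosome V held a smaller one, 17.9% against 20.9%, at an adjusted p of 0.0120. No motif of 16 passed, and 2 had an unadjusted Fisher exact p under 0.05, the GA repeat at 0.0279 and KLF/Sp at 0.0394.

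Motifs were counted in 150 bp windows at each summit, on both strands, with windows of the same width 400 bp to each side as background. The 16 patterns were GGTTCGA for the B box core, GAGAGA for the GA repeat, the heptamer GACGCAG with no factor assigned, GATAA for the GATA factors, GGGNGG for KLF/Sp and GGCGGGA for E2F. The others were 2 E-boxes written CACGTG and also CAGCTG, the PHA-4 motif TGTTTGC, the TATA box with letters TATAAA, then TGANTCA for AP-1 and TGACGTC for CRE. The list ends with a run of 7 T, which is TTTTTTT, with TTTTCAG for the splice acceptor, with the repeat CACACA and with the box CCAAT. KLF/Sp and E2F can share letters, as can the T run and the splice acceptor. A match is a description of letters and not a binding site.

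The motifs called lower at weaker summits were still more frequent there than in the flanks. The GA repeat, bound in other species by GAGA-type factors, was in 14.4% of weaker windows and 7.82% of their flanks, against 20.1% of thresholded windows. KLF/Sp, the GC-rich pattern of KLF and Sp zinc fingers, was in 18.1% against 8.64% of flanks and 23.4% of thresholded windows. GACGCAG was in 3.54% against 1.27% of flanks and 5.71% of thresholded windows. The B box core of tRNA genes was in 1.70% against 0.892% of flanks and 12.05% of thresholded windows. Over 66852 windows of this width along the genome, these 4 patterns were in 7.60, 7.90, 1.15 and 1.06%. E2F (1.43% against 2.54%) and CACACA (9.85% against 12.6%) were lower as well, making 6 called lower in Fisher exact tests adjusted over 16 motifs, and their flanks stood at 1.05% and 6.08%.

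CCAAT and the splice acceptor were the patterns called higher at weaker summits. CCAAT, the letters that NF-Y binds, was in 29.2% of weaker and 25.5% of thresholded windows, at an adjusted p of 0.00212, with 29.1% of genome windows. The splice acceptor was in 10.2% against 6.78%, at an adjusted p of 2.46e-06, below its flanks at 14.2% and genome windows at 15.7%. The remaining 8 did not pass. GATA, for instance, was in 24.1% of weaker and 23.0% of thresholded windows, under flanks of 30.0%. In genome windows GATA was in 30.0%, E2F in 1.13%, CACACA in 6.26%, CACGTG in 2.49%, CAGCTG in 2.91% and PHA-4 in 2.59%. TATA was in 16.4% of them, AP-1 in 4.40%, CRE in 1.40% and the T run in 30.0%.

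**Figure D4:**
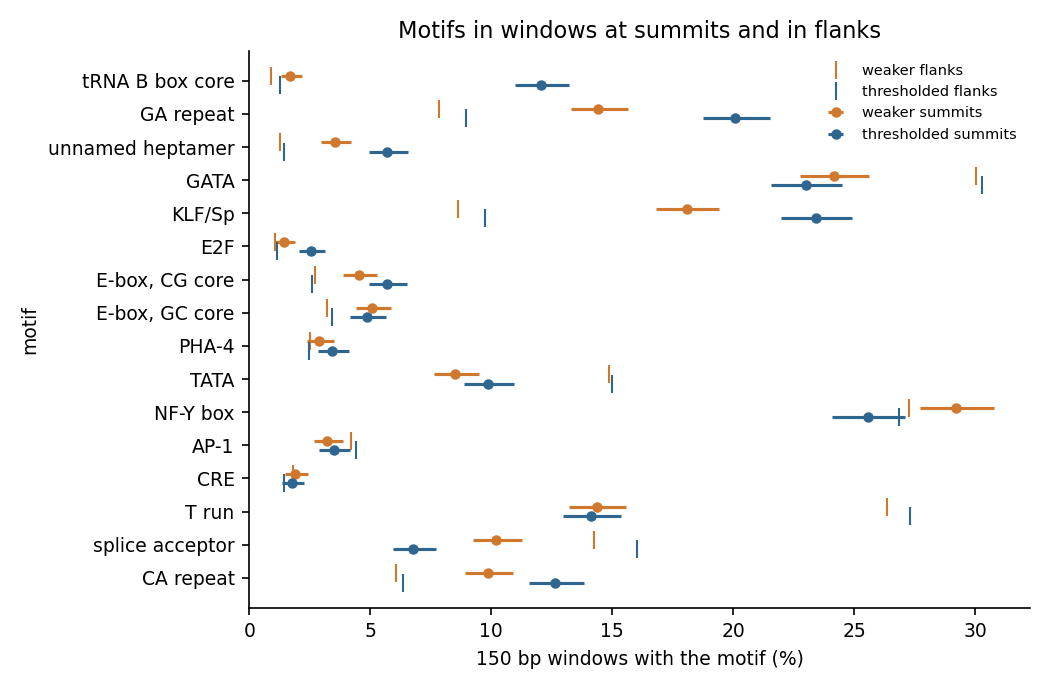
Share of 150 bp windows with each of 16 motifs at weaker and thresholded summits (points, with 95% Wilson intervals) and in flanking windows 400 bp away (ticks), in percent. The GA repeat stands at 14.4% of weaker and 20.1% of thresholded windows, over flanks of 7.82% and 8.96%.

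Split by place, the motif differences were called mainly outside coding sequence. In coding sequence, the GA repeat was in 8.003% of weaker and 7.84% of thresholded windows and KLF/Sp in 11.7% and 11.5%, with differences of 0.163 points (−2.67 to 2.68) and 0.157 points (−3.15 to 3.17). Outside coding sequence, the GA repeat was in 18.3% against 22.8%, KLF/Sp in 21.9% against 26.0% and GACGCAG in 4.73% against 6.89%, with adjusted p of 0.00167, 0.00857 and 0.0104 in Fisher exact tests. The CCAAT difference was called in neither place. This split was chosen after seeing the data. In the lists of single replicates, 2 motifs were called in replicate 2 and 3 in replicate 1, against 8 in the lists of both, and the GA repeat and GACGCAG differences turned over, at 0.147 to 1.16 and 0.336 to 0.404 points. The median GC content was 44.7% at weaker and 46.7% at thresholded summits, and 36.7% in the flanks of both, and its part in the motif differences was not tested.

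Chromosomes II and V held larger shares of the weaker summits and III and X smaller ones. Chromosome II held 18.5% of weaker and 15.3% of thresholded summits, at an adjusted p of 0.00302 in a Fisher exact test over 6 chromosomes, and takes up 15.2% of the genome. Chromosome V held 17.9% against 15.8%, III held 15.0% against 18.0% and X held 15.8% against 18.0%. Chromosomes I and IV did not pass. Without summits near short RNA genes, the difference on X was 1.81 points in the other direction and was not called, and that on V was 1.38 points and not called. In the lists of single replicates, 1 chromosome was called in replicate 1 and 2 in replicate 2, and the difference on III was 2.32 points in the other direction in replicate 1.

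Weaker summits lay nearer to thresholded ones than genome positions do, beyond the distance that the overlap step removes. Within 5000 bp of a thresholded summit lay 38.6% of weaker summits, against 21.1% of the genome, and within 1000 bp lay 9.09% against 5.41%. Within 500 bp lay 1.26%, where members overlapping a thresholded peak had been dropped. The median distance to the nearest thresholded summit was 8256 bp. Between weaker summits, 16.2% had another within 500 bp and 51.7% within 5000 bp. Within 200 bp of a 5′ end lay 14.8% of weaker and 15.6% of thresholded summits, and within 200 bp of a 3′ end lay 10.4% and 17.4%, against 9.97% and 7.18% of the genome.

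Each replicate ranked a peak at nearly all weaker peaks, and few of these were strong in both. With an overlap of at least 50% of the shorter peak, replicate 1 had a ranked peak at 3111 weaker peaks (90.9%) and replicate 2 at 3223 (94.2%). Both had one at 2969 and neither at 56. The ranked lists are long, at 55942 and 75491 peaks. In the replicates' own thresholded lists, 16 weaker peaks were found in replicate 1 (0.468%) and 89 in replicate 2 (2.60%), against 34.5% and 57.1% of the thresholded peaks. An IDR up to 0.05 was reached by 164 in replicate 1 and 613 in replicate 2, by 18 in both and by 2662 (77.8%) in neither.

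The median IDR of the weaker peaks was 0.481 in replicate 1 and 0.183 in replicate 2. The thresholded peaks had 0.0465 and 0.00501. Of the weaker peaks, 192 (5.61%) were in the conservative thresholded list. Across the 2969 weaker peaks ranked in both replicates, the Spearman correlation of the signals was −0.349, and across 2963 thresholded peaks it was 0.605. The rule holds the combined value of a weaker peak within a narrow range, and the correlation is given as description only.

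**Figure D5:**
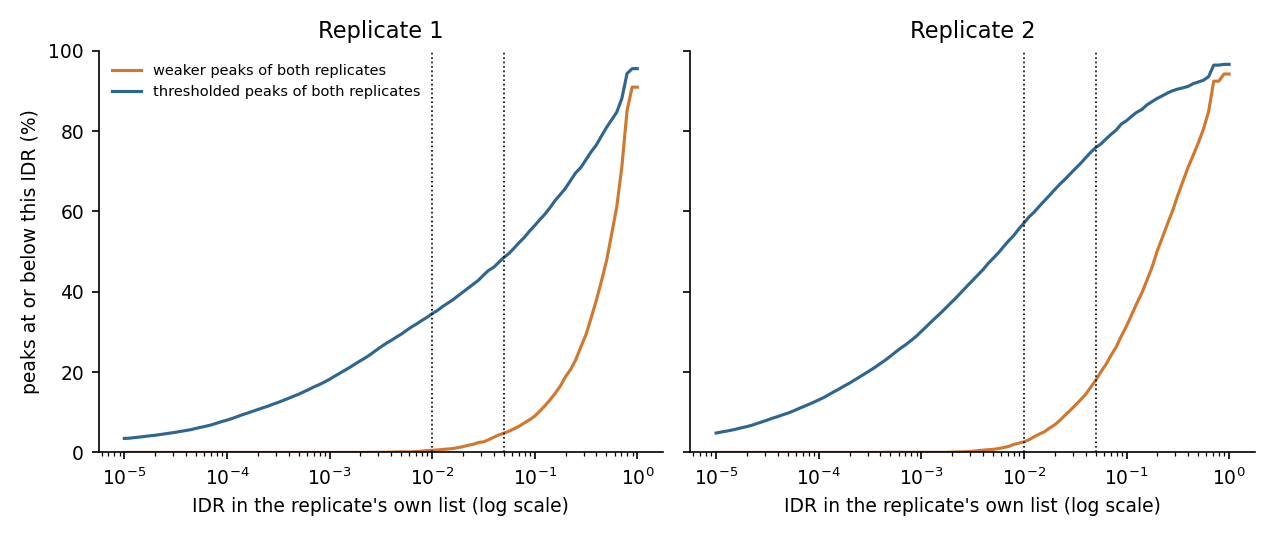
Cumulative share of weaker and thresholded peaks, in percent, whose matching peak in each replicate's own ranked list lies at or below the IDR on the log axis; dotted lines mark 0.01 and 0.05. At 0.05 the weaker peaks stand at 4.79% in replicate 1 and 17.9% in replicate 2, and the thresholded ones at 48.5% and 75.9%.

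The lin-26 locus held no weaker peak. Within 1000 bp of lin-26 (II:7682198-7684764) lay 6 ranked peaks, and the lowest IDR among them was 0.0991. The neighbouring gene lir-1, which encodes a LIN-26-related protein and lies just upstream at II:7672005-7682363, had 4 weaker peaks and a thresholded peak with an IDR of 0.00241. The weaker peak at II:7679438-7679773 had an IDR of 0.0199 and signals of 39.98 and 48.4 in replicates 1 and 2, and that at II:7676298-7676633 had 0.0146, with 51.3 and 32.4. The weaker peak at II:7676500-7676835, with an IDR of 0.0226, overlapped the latter and had the same replicate 1 signal. The 4 peaks are thus not all separate places. The peak at II:7674792-7675127 had 0.0458, with 14.2 and 44.1. The related genes lir-2 and lir-3 had none, with lowest IDRs of 0.174 and 0.309, nor did unc-119, the gene of the selection marker, at 0.0686.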

How the data were processed

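LIN-26::GFP ChIP-seq peak lists from 2 replicates were the starting point, on assembly ce11 per the labels. Of 8 deposited lists, 4 rank all peaks and 4 pass a threshold. In each list the authors give a signal, the caller's enrichment over a control, with no scaling between lists. They also deposited a score, a whole number derived from the IDR, where 830 corresponds to 0.01. The ranked lists carry the −log10 of the global IDR, as deposited by the authors, which set the band. Neither caller, aligner nor threshold is named in the sources used here, and 4 input signal columns with no sample name were not used.

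Summits were placed on WBcel235 with Ensembl release 115, counted from 1. Shares were compared by two-sided Fisher exact tests, with Benjamini-Hochberg adjustment in each family at 0.05, and 95% Wilson intervals. The tests were checked on simulated data. Each summit was assigned to 1 gene part, in the order coding sequence, 5′ UTR, 3′ UTR, other exon, intron, outside genes. Alternatives changed the IDR band, list, replicate, neighbours, comparison set, windows and distances. Named genes were lin-26, its relatives and unc-119, genes with promoter summits among the 20 weaker peaks of lowest IDR, and up to 3 genes per list with the lowest IDR. Of the 11 muscle genes with coding summits and the muscle genes with promoter summits, only some are named. These and the 5 genes with 4 coding summits were named after their values were seen. The members and lists were chosen with earlier results of these data known. Tests used scipy 1.17.1 and tables pandas 2.3.3 with numpy 2.4.6, run in Python 3.11.15, and plots used matplotlib 3.10.9.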

Additional observations from a re-analysis of the deposited data

How the results depend on the processing

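The coding and short RNA differences kept their direction and their call under every alternative run for them. The promoter difference kept both under all alternatives except the lists of single replicates, where it ranged from −1.83 to 2.67 points without a call. In those lists the number of called gene parts ranged from 3 to 4, of chromosomes from 1 to 2 and of motifs from 2 to 3, against 6, 4 and 8. Called chromosomes numbered 1 against the lower-signal thresholded peaks and 2 without summits near short RNA genes. Called motifs numbered 5 with an IDR below 0.02. Genes with a weaker promoter summit numbered 679 with a window from 500 bp upstream to 100 bp downstream, against 1109.

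Some differences turned over in 1 or both of the single-replicate lists, and none was called in the list where it turned over. They were the 5′ UTR (0.502 to 0.587 points), the 3′ UTR (0.00409 to 0.504), outside genes (−5.33 to 0.144), chromosome III (−1.36 to 2.32), the GA repeat (0.147 to 1.16), GACGCAG (0.336 to 0.404) and E2F (−1.05 to 0.330). The chromosome X difference turned to 0.246 against the lower-signal thresholded peaks and to 1.81 without summits near short RNA genes. The cause was not tested. No paired analysis was possible because there is only 1 group. Read depth is unknown, and no group without the tag was analysed here.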
